A study of Mus musculus with 2 samples.

Results

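The genes described here encode the actin cytoskeleton and the adhesion sites that anchor it: actins, tropomyosins, nonmuscle myosin 2, actin-binding proteins and the adaptor proteins of focal adhesions. They were chosen by symbol from a fixed list of 42 genes, of which 39 are among the 11405 genes of both deposited tables. Tagln, Tpm2 and Myl9 are not in these tables and were not analysed here. The samples are MS1 cells, an immortalised endothelial line derived from mouse pancreatic islets, infected with a lentivirus that expressed a short hairpin RNA. In the control library, with the genotype label wt, the hairpin was directed at LacZ, a bacterial gene that mouse cells lack, and in the other, labelled Pspc1 knockdown, at Pspc1, which encodes a paraspeckle protein. Both groups thus carry a lentiviral hairpin, with 1 library each, and the sources used here do not give the hairpin sequences, the time after infection or whether the cells were clones.

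Actin monomers assemble into filaments that are capped, severed, bundled and branched by partner proteins. Tropomyosins lie along the filaments and set which partners may bind, and nonmuscle myosin 2 pulls on them. Focal adhesions connect the filaments to integrins and so to the matrix, and in endothelium this machinery carries the tension on which barrier function and the response to flow depend. Many of these genes are known targets of the serum response factor SRF, which binds the CArG box and whose cofactors are held back by free actin monomers.

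Expression was measured by sequencing poly-A RNA, and the deposited values are read counts that the authors had scaled by a single factor per library. The control library held 64009912 reads on listed genes, the knockdown library 53518762. Pspc1 itself was listed at 28.8 with the LacZ hairpin and 3.78 with the Pspc1 hairpin (1880 and 192 reads), 7.62-fold lower. All 10 endothelial markers examined were listed, 4 of them higher and 6 lower in the knockdown library (Pecam1 had 2258 and 2175, Tie1 1079.5 and 1355). The lowest log2 ratios among them were -0.94 for Kdr (149 and 77.3), -0.89 for Tek (13.6 and 7.13) and -0.75 for Cdh5 (859 and 511). The sum of all 10, carried mainly by Pecam1 and Tie1, was 5553 with the LacZ hairpin and 5512 with the Pspc1 hairpin. Of 8 markers of smooth muscle cells and pericytes 1 was listed, at 0.72 and 2.38, while Acta2, Myh11 and Cnn1 were not in the tables. Of 6 fibroblast markers 1 was listed (1.15 and 0.98), of 6 macrophage markers 1, Cd68 (103 and 124), and of 5 epithelial markers 1, Krt18 (23.9 and 36.9). With 1 library per group there is no spread between cultures, so p-values are not given, and none of the differences below has been checked against replicates.

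Most of these genes differed by less than 1.5-fold between the libraries, and 5 were called. Of the 39 listed genes, 35 averaged 50 or more over both libraries, the minimum below which no gene was called. A gene was called at a change of at least 2-fold in log2((knockdown + 0.5)/(control + 0.5)), the log2 ratio used throughout, and this pseudocount of 0.5 understates changes of low genes. Of the 35 genes 4 rose (Zyx, Gsn, Unc45a and Efhd2), or 11.4%, where 0.551% of all 3629 genes with such a mean did. The only one called lower was Tpm4 (2.86%, against 0.937% of all genes). The list was drawn up when it was already known that these 5 genes were called, so nothing is read from these shares. At a softer limit of 1.5-fold, Vcl and Myh10 joined Tpm4 as lower (3 of 35, or 8.57%, against 3.89% of all genes) and no other gene joined those higher (11.4% against 3.39%). The remaining 28 genes, 80% of the 35, lay within 1.5-fold, as did 92.7% of all genes.

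The median log2 ratio of the 35 genes was 0.06, beside 0.07 for all 3629 genes, and 19 of them (54.3%) had a log2 ratio above 0, beside 60.1% of all genes. Scaling both libraries by total reads shifted all log2 ratios by -0.10 and brought both medians below 0 (-0.04 and -0.03). Under the deposited scaling, median-of-ratios scaling, total reads and a trimmed mean of M values alike, 16 genes stayed higher and 12 stayed lower in the knockdown library, and 7 (Cfl1, Actn1, Cnn3, Myh9, Parva, Vasp and Msn) changed sign. All 39 genes together made up 2.70% of the control reads and 2.82% of the knockdown reads (95% exact binomial intervals 2.69% to 2.70% and 2.82% to 2.83%). These intervals, and those given below, cover counting error only. Actb alone held 375924 of the 1725338 control reads of these genes and 379011 of their 1511843 knockdown reads. With scaling by total reads 16 of the 35 genes were above 0 and 19 below, so the larger share is not a rise of most genes.

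**Figure D1:**
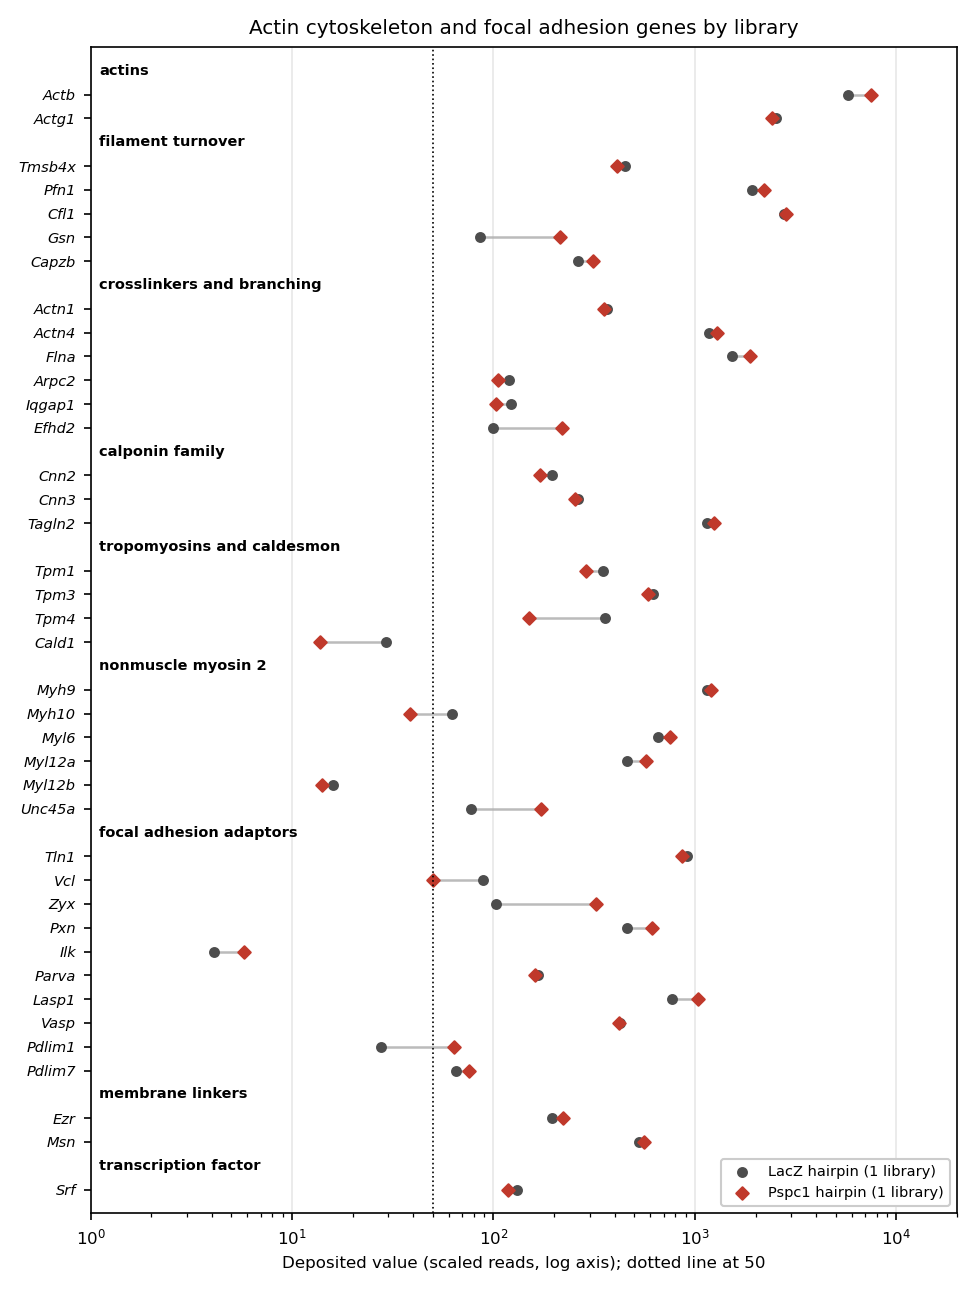
Deposited values (scaled reads, log axis) of the 39 listed genes in the LacZ library (grey circles) and the Pspc1 library (red diamonds), by role, with a dotted line at 50. Most pairs of points nearly coincide. Zyx, Gsn, Unc45a, Efhd2 and Pdlim1 are farther right in the Pspc1 library and Tpm4, Vcl, Myh10 and Cald1 farther left.

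The CArG box is shown first because it is the site that SRF is known to bind in many of these genes. RefSeq promoter windows (GRCm38.p6, from 250 bases before to 50 bases after each annotated start) were found for 36 of the 39 listed genes, and Actb, Parva and Pxn had no window. An exact CArG box, read on both strands since it is its own reverse complement pattern, was present in 5 of the 36 (13.9%) and in 1.81% of 27025 genes with a window. The stretches below show the box in capitals in the sequence before a RefSeq start of these 5 genes, 5′ to 3′ on the gene's strand. The stretch of Myl6 lies inside its annotated gene span (chromosome 10, 128490860 to 128494145). Srf carries the box at 2 places, 82 and 62 bases before its start. TATAAA or its reverse complement TTTATA was in the windows of 3 of the 36 genes (8.33%), Cald1, Myh9 and Srf. This stands beside 15.7% of the 27025 genes with a window, and with 3 genes nothing is read from it. Both comparisons set listed genes beside all genes with a window, many of which are not among the 11405 listed.
Actg1, chr11:120348551-120348610, minus strand: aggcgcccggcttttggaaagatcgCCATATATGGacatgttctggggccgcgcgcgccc
Cnn2, chr10:79988519-79988578, plus strand: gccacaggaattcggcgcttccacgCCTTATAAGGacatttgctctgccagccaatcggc
Myl6, chr10:128493025-128493084, minus strand: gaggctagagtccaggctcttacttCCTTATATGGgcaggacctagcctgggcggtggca
Srf, chr17:46556190-46556269, minus strand: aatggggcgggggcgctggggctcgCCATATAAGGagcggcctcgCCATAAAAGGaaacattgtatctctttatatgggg
Vcl, chr14:20929148-20929205, plus strand: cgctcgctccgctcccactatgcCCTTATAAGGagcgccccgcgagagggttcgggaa

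The 5 genes with these boxes did not share a direction. The log2 ratios of the 5 genes were -0.06 for Actg1, -0.20 for Cnn2, 0.20 for Myl6, -0.14 for Srf and -0.81 for Vcl. Of the 5 genes called at 2-fold none had an exact box in its window, which says only that these letters are not there. With 1 inner mismatch allowed, Gsn, Tpm3, Vasp and Myl12a were added (9 of 36 genes), and of these Gsn is a called gene. For comparison, 100 bases before a RefSeq start are printed for the genes with the largest rise and the largest fall. Both stretches lie inside the gene spans given further below (from 42349630 for Zyx and from 72134975 for Tpm4) and read as follows.
Zyx, chr6:42349728-42349827, plus strand: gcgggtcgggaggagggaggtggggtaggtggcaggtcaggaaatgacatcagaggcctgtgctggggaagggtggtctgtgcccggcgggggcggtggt
Tpm4, chr8:72135188-72135287, plus strand: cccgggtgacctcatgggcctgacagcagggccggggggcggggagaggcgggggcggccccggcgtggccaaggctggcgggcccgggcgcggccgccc

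Srf, the gene of the transcription factor, had values of 131 with the LacZ hairpin and 119 with the Pspc1 hairpin. Its log2 ratio of -0.14 (95% counting interval -0.19 to -0.09) stayed between -0.24 and -0.09 over the scalings. The 2 cytoplasmic actins differed in direction. Actb, beta-actin, had 5761 with the LacZ hairpin and 7466 with the Pspc1 hairpin (log2 ratio 0.37, interval 0.37 to 0.38), and Actg1, gamma-actin, had 2530 and 2428 (-0.06, interval -0.07 to -0.05). Neither was called, and after a correction for gene length and GC content their values were 0.29 and -0.17. Per kilobase the ratio of Actb to Actg1 was 2.26 in the control and 3.05 in the knockdown library. In this change of 1.35-fold (interval of the log2 change 0.42 to 0.45) the scaling and the lengths divided by cancel. Per kilobase of exons Actb was the most abundant of the 35 genes in both libraries, with 2150 and 2787. Of 50-base stretches of the main Actg1 transcript, 56.7% also occur in transcripts of other genes, mostly processed pseudogenes, against 14.2% for Actb, so their counts depend on how such reads were assigned.

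Among genes that control filament turnover, only gelsolin was called. Gsn (ENSMUSG00000026879, mm10 chromosome 2, 35256380 to 35307892, plus strand) encodes a calcium-dependent severing and capping protein. It rose from 85.5 with the LacZ hairpin to 214 with the Pspc1 hairpin, 2.51-fold, on 5578 and 10872 reads. Its log2 ratio was 1.32 (interval 1.28 to 1.37), rank 8 of 3629 from the top, and no 50-base stretch of its main transcript occurs in another gene. The other genes of the group, which sequester, recycle or cap actin, lay within 1.5-fold. Tmsb4x, the monomer-binding thymosin beta 4, had 448 and 412, and Pfn1, profilin, had 1919 and 2199. Cfl1, the severing protein cofilin, had 2764 and 2846, and its log2 ratio of 0.04 changed to -0.06 with scaling by total reads. Capzb, the beta subunit of capping protein, had 264 and 312. Capzb and Pfn1 were higher and Tmsb4x was lower in the knockdown library in all 4 scalings. Relative to Capzb, Gsn was 2.12-fold higher in the knockdown library (interval of the log2 change 1.03 to 1.14), and relative to Cfl1 it was 2.43-fold higher.

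Of the crosslinking and branching genes only Efhd2 was called. Efhd2 (ENSMUSG00000040659, mm10 chromosome 4, 141858142 to 141874920, minus strand) encodes an EF-hand protein that binds filamentous actin. It rose from 99.4 to 219, 2.2-fold (log2 ratio 1.13, interval 1.09 to 1.18, 6489 and 11093 reads), but the length and GC correction brought it to 0.97, short of 2-fold. The large crosslinker filamin A, Flna, had 1534 and 1887 (log2 ratio 0.30, and 0.41 after the correction). The alpha-actinins, which bundle antiparallel filaments, had 367 and 355 for Actn1 and 1170.5 and 1283 for Actn4. Arpc2, a subunit of the branching Arp2/3 complex, had 120 and 106, and Iqgap1, a scaffold for Cdc42 and Rac1, had 122 and 103. The log2 ratio of Iqgap1, with exons of 16538 bp in all, was -0.23 as deposited and 0.08 after the correction. The calponin family, whose members bind along filaments, lay within 1.5-fold: Cnn2 had 196 and 171, Cnn3 had 263 and 255, and Tagln2, transgelin 2, had 1149.9 and 1239.

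Tropomyosins had the lowest median of any role, -0.28 over 3 genes with sufficient values, and Tpm4 alone was called. Tpm4 (ENSMUSG00000031799, mm10 chromosome 8, 72134975 to 72153142, plus strand) encodes a nonmuscle tropomyosin of stress fibres. It fell from 359 with the LacZ hairpin to 149 with the Pspc1 hairpin, 2.40-fold, on 23443 and 7588 reads. The log2 ratio was -1.26 (interval -1.30 to -1.23) and ranked 17 of 3629 from the bottom, and it lay between -1.37 and -1.21 over the scalings and at -1.23 after the length and GC correction. Tpm1 had 348 and 287 (log2 ratio -0.28), and Tpm3 had 621 and 583 (-0.09). Of the 50-base stretches of the main transcripts, 16.1% for Tpm4 and 62.4% for Tpm3 also occur in other genes, for Tpm3 mostly in the retrogene Tpm3-rs7, and none for Tpm1.

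The share of Tpm4 among tropomyosin transcripts was lower in the knockdown library, but its size depends on the gene length used. Per kilobase of all merged exons, Tpm4 made up 51.1% of the summed level of Tpm1, Tpm3 and Tpm4 with the LacZ hairpin and 32.6% with the Pspc1 hairpin. The merged exons of Tpm1 and Tpm3 (6485 and 6085 bp) are far longer than their main transcripts (1898 and 2233 bp), unlike those of Tpm4 (2203 and 2128 bp). Per kilobase of the main transcript, the share of Tpm4 was 26.8% and 14.6%, and without any length it was 27.0% and 14.7%. With the latter measures Tpm3 led in both libraries (44.1% and 54.1% per kilobase of the main transcript), whereas per kilobase of merged exons Tpm4 led in the control library. Relative to Tpm3, Tpm4 was 2.26-fold lower in the knockdown library (log2 change -1.17, interval -1.22 to -1.13). Caldesmon, Cald1, which binds actin, myosin and tropomyosin together, had 29.1 and 13.8, a mean too low to be called (log2 ratio -1.05, interval -1.20 to -0.95, and -0.77 after the correction).

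**Figure D2:**
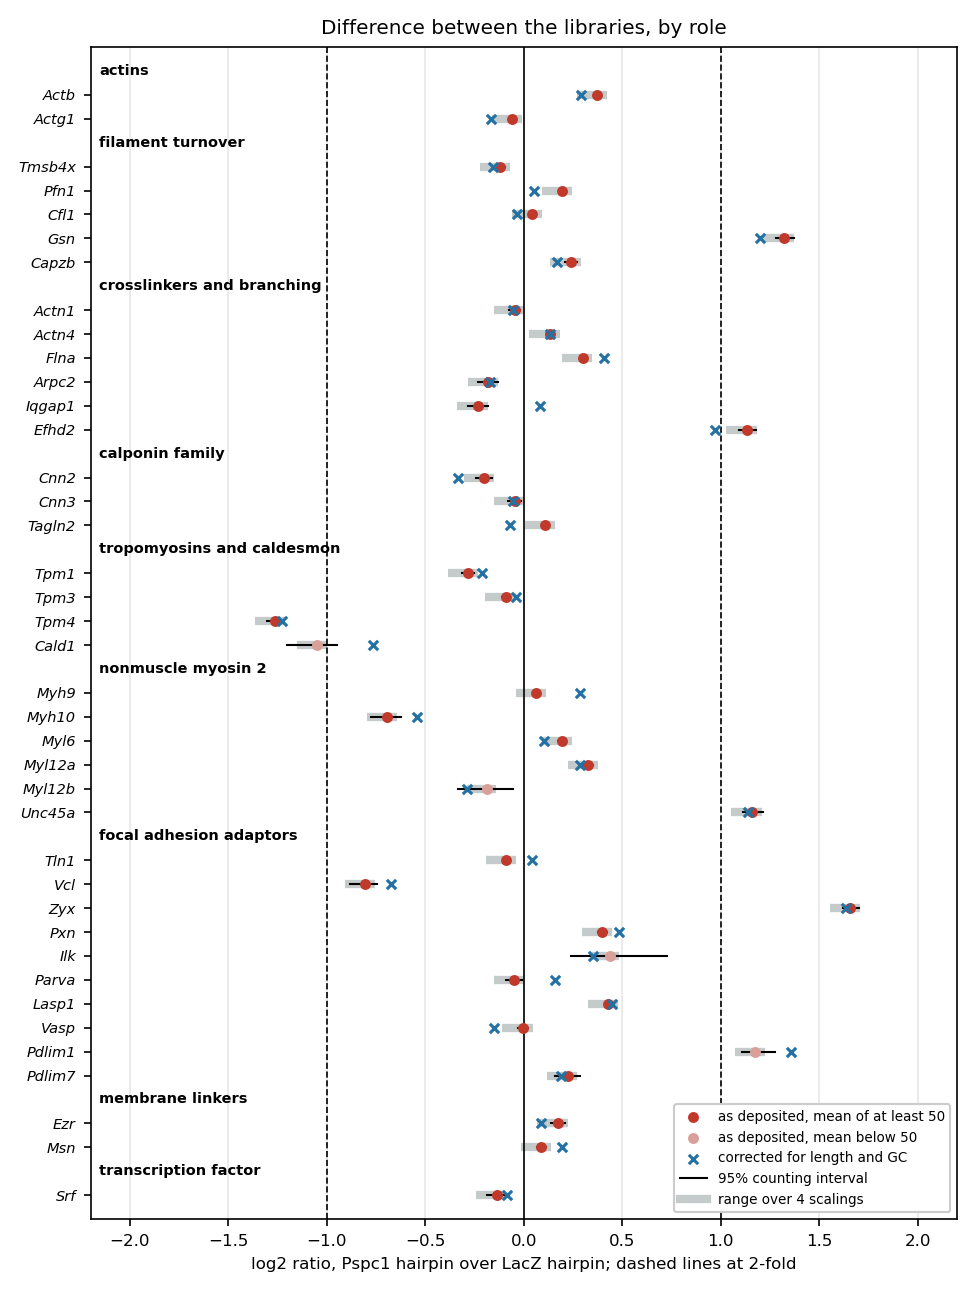
The log2 ratio of each gene, knockdown over control, by role: as deposited (circles, pale where the mean is below 50), with its 95% counting interval (thin black line), the range over 4 scalings (grey bar) and the value corrected for length and GC content (blue crosses). Zyx, Gsn, Unc45a, Tpm4 and the pale Pdlim1 lie beyond the dashed 2-fold lines in every version shown, and the cross of Efhd2 lies just inside.

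Among the genes of nonmuscle myosin 2 the chaperone gene Unc45a was called, the heavy chain Myh9 was level and the heavy chain Myh10 lay lower, past 1.5-fold. Unc45a (ENSMUSG00000030533, mm10 chromosome 7, 80325292 to 80341005, minus strand) encodes a chaperone that folds myosin heads. It rose from 77.2 to 173, 2.24-fold (log2 ratio 1.16, interval 1.11 to 1.21, 5039 and 8776 reads), with 1.14 after the correction. The heavy chain Myh9, one of the myosins it is known to serve, had 1144 and 1196, with a log2 ratio of 0.06 that changed to -0.04 with scaling by total reads. The other heavy chain, Myh10, had 62.4 and 38.4 (1.62-fold lower, log2 ratio -0.69, interval -0.78 to -0.62), past 1.5-fold as deposited but not after the correction (-0.54). Relative to Myh9, Myh10 was 1.70-fold lower in the knockdown library (interval of the log2 change -0.84 to -0.68), and its share of both heavy chains per kilobase was 6.32% with the LacZ hairpin and 3.82% with the Pspc1 hairpin. The essential light chain Myl6 had 653 and 748, and the regulatory light chain Myl12a had 458 and 575 (log2 ratio 0.33). Myl12b, a close copy of Myl12a next to it on chromosome 17, had 16.1 and 14.03. Of the 50-base stretches of Myl12a 29.2% also occur in transcripts named Myl12b, and 26.7% of the exonic bases of Myl12b overlap another gene model of the same name, so the level of this pair is uncertain.

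Focal adhesion genes held both the largest rise and a gene past 1.5-fold in the other direction. Zyx (ENSMUSG00000029860, mm10 chromosome 6, 42349630 to 42360213, plus strand) encodes zyxin, a LIM-domain protein that comes to stressed filaments and adhesions and recruits VASP and alpha-actinin. It rose from 103 with the LacZ hairpin to 325 with the Pspc1 hairpin, 3.16-fold, on 6693 and 16477 reads. The log2 ratio of 1.66 (interval 1.62 to 1.70) ranked 6 of 3629, and it lay between 1.55 and 1.71 over the scalings and at 1.63 after the correction. Vcl (ENSMUSG00000021823, mm10 chromosome 14, 20929398 to 21033676, plus strand) encodes vinculin, which couples talin to actin under load. It had 88.3 and 50.3, 1.76-fold lower (log2 ratio -0.81, interval -0.88 to -0.75), and stayed past 1.5-fold after the correction (-0.67). Its exons overlap those of Ap3m1 (13.3 and 10.4) over 2090 of 8191 bp. Of the 50-base stretches of its main transcript 39.2% also occur in Ap3m1, so its count depends on how such reads were assigned.

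None of the other focal adhesion genes with sufficient values reached 1.5-fold. Vasp, the actin polymerase that zyxin recruits, had 423 and 422, the only one of the 35 genes whose counting interval included equality (-0.03 to 0.02). Tln1, talin, the link from integrins to vinculin, had 917 and 862 (log2 ratio -0.09). The scaffold paxillin, Pxn, had 463 and 610 (0.40), and the actin-binding LIM protein Lasp1 had 769 and 1037 (0.43). Pxn and Lasp1 were higher and Tln1 was lower in the knockdown library in all 4 scalings. After the length and GC correction the log2 ratio was 0.49 for Pxn and 0.45 for Lasp1, and that of Tln1 changed sign to 0.04. In the knockdown library Zyx was 3.17-fold higher relative to Vasp, 2.40-fold higher relative to Pxn and 5.56-fold higher relative to Vcl, whereas Vcl was 1.65-fold lower relative to Tln1. These 16 ratios between members were chosen after the values had been seen.

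The remaining adaptors were within 1.5-fold or too low to be called. Parva, alpha-parvin, had 166 and 160, and Pdlim7, a PDZ and LIM domain protein of stress fibres, had 64.9 and 75.8. Pdlim1, of the same family, had 27.8 and 63.5, 2.28-fold higher (log2 ratio 1.18, interval 1.11 to 1.27, and 1.36 after the correction), but its mean of 45.7 lay under the minimum of 50. Of its 50-base stretches 19.8% also occur in a processed pseudogene. Ilk, integrin-linked kinase, had 4.12 and 5.77 on 269 and 293 reads. Of its 2744 exonic bp 2106 overlap Taf10 (277 and 362), and how reads in such overlaps were assigned is not known here. The membrane linkers, which tie actin to the plasma membrane, lay within 1.5-fold, with 196 and 221 for ezrin, Ezr, and 526 and 559 for moesin, Msn.

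**Figure D3:**
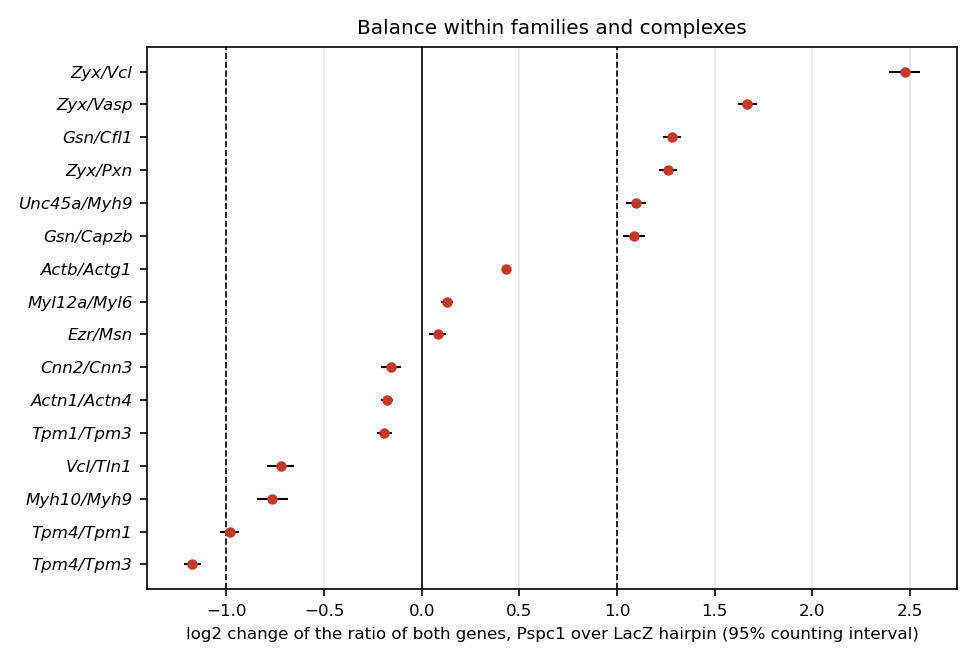
Change of the ratio between both genes of a pair, knockdown over control, on a log2 scale with 95% counting intervals. The scaling and the lengths divided by cancel in it, but it was not corrected for the trend on length and GC content. For Unc45a and Myh9 the single log2 ratios after that correction were 1.14 and 0.28. Zyx against Vcl, Vasp and Pxn, and Gsn and Unc45a against their partners, lie to the right of the dashed 2-fold line, and Tpm4 against Tpm3 to the left.

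The 5 called genes differed in base composition as well as in direction. The GC content of the longest transcript was 56.6% for Zyx, 57.1% for Gsn, 56.9% for Efhd2 and 58.5% for Unc45a. It was 45.9% for Tpm4, 48.6% for Vcl and 51.5% for Myh10. Other genes went against this order: Srf, with 64.4%, was lower (log2 ratio -0.14). Pdlim1, with 43.0% and a mean below 50, was higher (1.18). Among the 35 genes the log2 ratio had a Spearman correlation of 0.54 with GC content and of -0.02 with exonic length. Over 5889 annotated genes averaging 20 or more, these were 0.28 and -0.32. These are descriptions across genes of 2 libraries, which are not independent replicates. The correction above removes a smooth trend on both properties fitted over those 5889 genes, and under it Zyx, Gsn and Unc45a remained at least 2-fold higher and Tpm4 at least 2-fold lower. The part of base composition in the remaining differences was not tested.

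**Figure D4:**
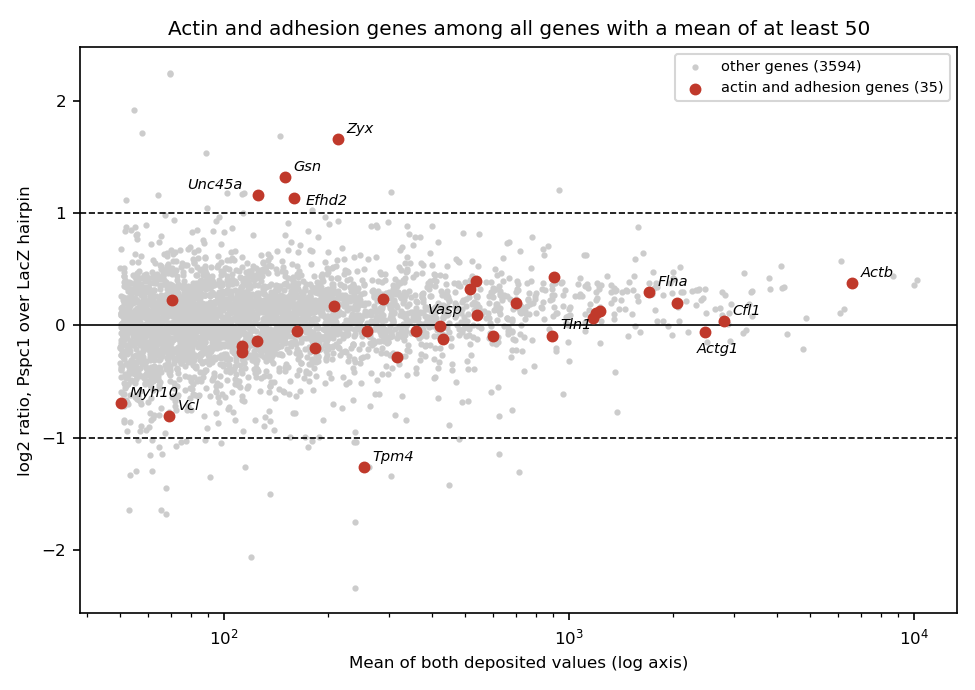
The log2 ratio against the mean of both deposited values (log axis) for 35 actin and adhesion genes (red) and all others of the 3629 genes averaging 50 or more (grey). Zyx, Gsn, Unc45a, Efhd2 and Tpm4 lie beyond the dashed 2-fold lines, and Actb, Actg1, Cfl1 and Flna near the right end lie within 1.5-fold.

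Further genes of the same machinery, in 6 lists that the 42 genes do not share, held no called gene. Of 118 such genes 110 were listed and 64 had a mean of at least 50. None of the 64 reached 2-fold in either direction, where 0.551% of all 3629 genes were higher and 0.937% lower. With shares this small, nothing is read from the lack of called genes here. At 1.5-fold 3 of the 64 were higher and 1 was lower, beside 123 (3.39%) and 141 (3.89%) of all 3629 genes. After the length and GC correction none of the 64 reached 1.5-fold, where 112 of the 3629 genes were higher and 105 lower. At such shares few of 64 genes would pass, so nothing is read from these counts either. The median log2 ratio was 0.04 as deposited, 0.11 after the correction and -0.09 with scaling by total reads. The last value is over 66 genes, since Palld and Tns1 pass the minimum mean only there, with log2 ratios of -1.13 and -1.04. The higher ones were Rhob (560 and 885), Marcksl1, a membrane-bound actin regulator (311 and 521), and Fscn1, the bundler of filopodia (880 and 1361). The lower one was Actr2, the Arp2 subunit (82.3 and 49.3).

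The medians of the 6 lists lay near 0, and 5 of them changed sign in at least 1 scaling. Of 12 genes of the Arp2/3 complex and its activators, 5 had a log2 ratio above 0 and the median was -0.02, with Actr3 (257 and 187) and the WAVE complex gene Cyfip1 (97.2 and 72.8) next to Actr2. Among 16 other focal adhesion proteins 8 were above 0 (median -0.03), and none reached 1.5-fold: the kinase Src had 208 and 257, and the adaptor Crkl 82.6 and 68.8. Of 17 other actin binders 9 were above 0 (median 0.06), with Cap1, a cofilin cofactor, at 342 and 450, and the spectrin Sptbn1 at 151 and 110. The 4 other myosins with sufficient values included Myo1c (1792 and 2193) and Myo10 (113 and 82.3). Of the other SRF targets, Ccn1 had 726 and 727, Ccn2 had 250 and 222, Csrp1 had 668 and 749, and Ankrd1 had 50.1 and 64.9, all within 1.5-fold.

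**Figure D5:**
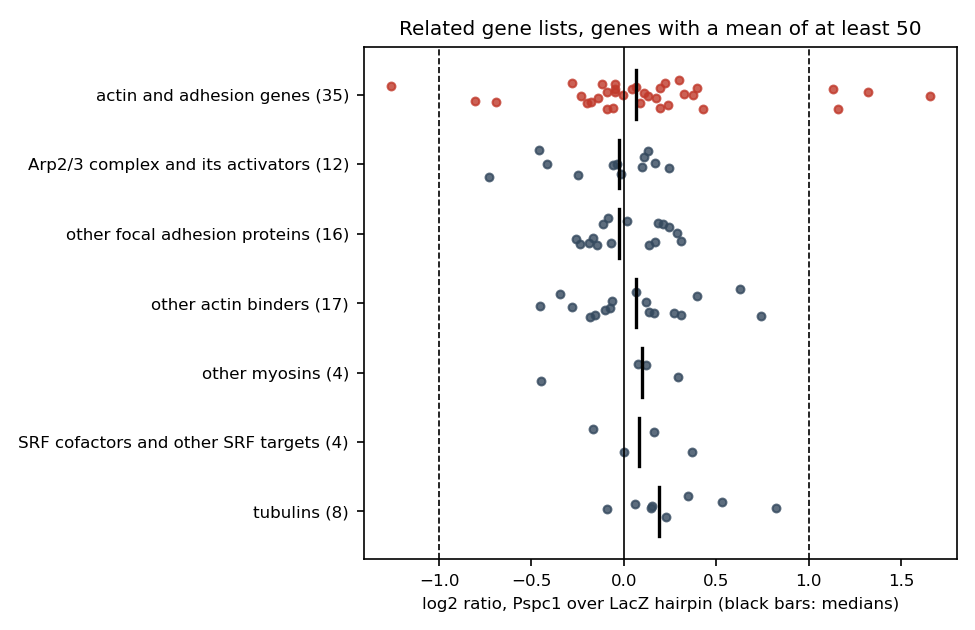
The log2 ratio of the 35 actin and adhesion genes (red) and of the genes of 6 of the related lists, tubulins among them (blue), 1 point per gene averaging 50 or more, with black bars at the medians and the number of genes in brackets. The related lists stay inside the dashed 2-fold lines, and their medians lie between -0.03 and 0.19.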

How the data were processed

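Poly-A RNA of 2 libraries was analysed, 1 per group, with groups taken from the treatment label. The submitters' processing notes list, without role or order, DESeq 1.39.0, featureCounts 2.0.0, HISAT2 2.1.0, Trimmomatic 0.39 and the build mm10. How shared reads were counted, and the annotation, are not given in the sources used here. What the authors deposited is a signal per gene, reads scaled by 1 factor per library. All were whole multiples of 1 step per library (0.0153 and 0.0197; tolerance 0.01 reads), so dividing by the step gave whole reads. Counting intervals of single ratios (95%, conditional binomial, Clopper-Pearson, without pseudocount) used these reads, and those of ratios between genes a normal approximation on the log scale. For the 35 genes averaging 50 or more, intervals were 0.01 to 0.16 log2 wide.

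The genes and lists were chosen with earlier results of these data known. Every listed member is accounted for, and related lists name up to 4 genes with the largest change. The separate values of 1 related list are not reported here. Symbols (11399 of 11405 identifiers), coordinates and merged exonic lengths came from GENCODE M21, and promoters from RefSeq. Shared 50-base stretches of GENCODE transcripts stand in for a planned comparison of protein sequences, which was not run. They exceeded 20% of the main transcript for 7 of the 35 genes, among them Myl6 (53.2%), Cnn3 (30.3%) and Cfl1 (23.0%). The length and GC correction subtracts a cubic polynomial in log length and GC content fitted over the 5889 genes averaging 20 or more. Steps were tested on simulated reads. Python 3.11.15, numpy 2.4.6, pandas 2.3.3, scipy 1.17.1 and matplotlib 3.10.9 were used.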

Additional observations from a re-analysis of the deposited data

How the results depend on the processing

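Counts of genes called higher or lower at 2-fold stayed within 1.5 times under other scalings, a pseudocount of 5, and the length and GC correction. With no minimum mean or one of 20, 2 genes were lower (Cald1 joins Tpm4) in place of 1, and 5 higher (Pdlim1 joins) in place of 4. With a minimum of 100, 1 gene in place of 3 was lower at 1.5-fold, since Vcl and Myh10 are not tested there. The median log2 ratio of 0.06 became 0.11 with median-of-ratios scaling, 0.11 with a trimmed mean of M values and fell below 0, to -0.040, with total reads on the listed genes. The CArG share was 25% with 1 inner mismatch allowed, beside 11.3% of all genes with a promoter window. The lengths used moved the Tpm4 share, and the Tpm1 share in the control library, by over 1.5 times, an alternative chosen after seeing the data, and the shares of actins and myosin heavy chains by less. Among the listed members, the genes that lost 2-fold were Efhd2 (0.97, correction) and Cald1 (-0.86 with a pseudocount of 5, -0.77 with the correction). No paired analysis was possible because each group has 1 library, for which reason no library could be left out either. Depth limits little here: the fewest reads of any of the 35 genes in a library were 1950, for Myh10 in the knockdown library.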

Other observations

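Tubulins, the subunits of microtubules, were examined as the other main filament system. Of 11 tubulin genes 8 had a mean of at least 50, none reached 2-fold and 7 were above equality, as were 60.1% of all genes. Their median log2 ratio was 0.19 (0.09 with scaling by total reads and 0.02 after the length and GC correction). Tuba1a had values of 355 in the control and 629 in the knockdown library, 1.77-fold higher, with a log2 ratio of 0.83 (95% counting interval 0.80 to 0.85) and 0.66 after the correction. Tubb2a had 72.1 and 104, and Tubb5 had 3695 and 4697. Tubulin genes share sequence, and the assignment of shared reads is not known.

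Of the 110 listed genes of the 6 related actin and adhesion lists, with no minimum mean 4 were lower by 2-fold or more and 1 was higher by that much, beside 306 and 149 of all 11405 genes. All 5 had means under 50. The lower ones were Ppp1cb, the catalytic subunit gene of myosin phosphatase (49.4 and 18.1, log2 ratio -1.42), Palld, of the stress fibre protein palladin (66.9 and 32.5, -1.03), the kinase gene Rock2 (13.6 and 6.11, -1.09) and Rdx, radixin (15.8 and 6.76, -1.17). The higher one was Fhl1 (0.55 and 2.54). They were named after their values had been seen.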
